A study of Mus musculus with 4 samples.

Results

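Polycomb proteins repress genes by marking chromatin, and the genes described here encode the core of their complexes. They are Ezh1, Ezh2, Eed and Suz12 of Polycomb repressive complex PRC2, Rnf2, Ring1, Bmi1, Pcgf1 and Pcgf6 of PRC1, and Bap1, the enzyme that removes the PRC1 mark. The 10 genes were chosen by name from the 17945 genes of the deposited table. They have 29 RefSeq transcript models there, of which 13 are curated. A gene's value is the sum over its models, and the single models of the 7 genes with more than 1 are described after the gene totals.

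PRC2 places methyl groups on lysine 27 of histone H3, with EZH2 or EZH1 as the catalytic subunit and EED and SUZ12 as the scaffold. PRC1 attaches a single ubiquitin to histone H2A through RNF2 (also called RING1B) or RING1. Each PRC1 holds 1 PCGF subunit, and that subunit decides which other proteins join. BMI1 marks canonical PRC1 with CBX and PHC subunits, while PCGF1 and PCGF6 mark variant complexes without them. In mouse oocytes Polycomb marks are laid down during growth, and some of them pass to the embryo as imprints that do not depend on DNA methylation.

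Polyadenylated RNA was measured in germinal vesicle oocytes of unprimed female mice at postnatal day 20, held in meiotic prophase with milrinone at 1 µg/ml. Strain is not given in the sources used here. Each live oocyte had been imaged in bright field and placed by a trained network in the surrounded nucleolus (SN) class, with condensed chromatin around the nucleolus, or the non-surrounded nucleolus (NSN) class. Each class had 15 oocytes and 2 libraries. How the 15 were divided, and whether replicates came from separate animals, is not given, so the p-values rest on the spread among 4 libraries alone, which may be technical.

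The SN libraries held 37023401 and 36922573 estimated counts and the NSN libraries 32307398 and 32541920. Summed over 13 oocyte marker genes, the level was 27637 to 33021 CPM (counts scaled to library size, here with the trimmed mean of M values, TMM) in SN and 24642 to 27133 in NSN. The 12 granulosa and cumulus markers summed to 81.9 and 82.8 CPM in SN and 76.3 to 88.5 in NSN. Of the 12, 1 (Foxl2) was under 3 counts in every library, while Cyp19a1 had 1546 and 1647 counts in SN and 1367 and 1449 in NSN, and Inha 123 and 242 in SN and 378 and 141 in NSN. The theca and stroma markers summed to 6.85 to 7.11 CPM in SN and 7.89 to 8.75 in NSN, and the blood, immune and endothelial markers to 19.3 to 21.6 in SN and 17.0 to 18.1 in NSN. Col3a1 and Ptprc were under 3 counts in every library, and Pecam1, an endothelial marker, had 461 and 606 counts in SN and 453 and 544 in NSN. Some blood and stroma markers had counts mainly in SN. Lyz2 had 27 and 35 counts in SN and 0 and 1 in NSN, Hba-a1 18.2 and 26.0 in SN and 0 and 0 in NSN, and Col1a1 3 and 3 in SN and 0 and 0 in NSN. Others of these lists did not. Pdgfra had 9 and 8 counts in SN and 14 and 22 in NSN. Cyp11a1 had 136 and 167 in SN and 150 and 211 in NSN, and Kdr 33 and 41 in SN and 38 and 47 in NSN. The part of such transcripts in the results was not tested. RNA was captured with oligo(dT), and in such pooled samples less RNA per oocyte, a shorter poly(A) tail and fewer oocytes with the transcript cannot be told apart.

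The levels of the 10 genes spanned more than 4 orders of magnitude, from Pcgf1 among the most abundant transcripts of the oocyte to Ring1 close to 0. No gene of the set passed the test between the classes. Levels between genes are given in TPM, the usual transcript abundance scaled for length and depth, as the sum of the authors' values over a gene's models.

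Of the catalytic subunits of PRC2, Ezh2 was the more abundant by far. Ezh2 had 135 and 144 TPM in the SN libraries, against 154 and 166 TPM in the NSN libraries. Ezh1 had 10.8 and 11.2 TPM in SN, against 11.6 and 14.8 TPM in NSN. The level of Ezh2 was therefore 12.6 and 12.8 times that of Ezh1 in the SN libraries and 13.3 and 11.3 times in the NSN libraries, and it supplied 92.7% ± 0.103 of the summed TPM of the pair in SN and 92.4% ± 0.807 in NSN (SD, n = 2 each). The longest stretch of identical bases between the transcripts of Ezh2 and Ezh1 is 17 bases.

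The scaffold subunits stood at different levels. Eed, which binds the trimethylated histone tail and stimulates the enzyme, had 100.6 and 123 TPM in SN and 116 and 124 TPM in NSN. Suz12, the platform for the accessory subunits, had 36.4 and 42.9 TPM in SN and 45.2 and 57.3 TPM in NSN. The ratio of Eed to Suz12 was 2.76 and 2.86 in SN and 2.57 and 2.17 in NSN, so both SN ratios lay above both NSN ratios. The log2 difference was 0.25, with an exact two-sided permutation p = 0.333, the smallest that 2 libraries against 2 can give.

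In PRC1 nearly all the transcript of the ubiquitin ligase pair came from Rnf2, the other partner being close to the detection limit. Rnf2 had 47.4 and 63.1 TPM in SN and 56.2 and 70.4 TPM in NSN. Ring1 had 7 and 4 estimated counts in the SN libraries and 8 and 4 in the NSN libraries, or 0.14 and 0.08 TPM in SN and 0.18 and 0.09 in NSN. Pooled over a class, Ring1 stood at 0.149 unscaled CPM in SN (95% exact Poisson interval 0.0743 to 0.266) and 0.185 in NSN (0.0956 to 0.323). The ratio of SN to NSN was 0.804, with an interval of 0.321 to 1.99 that covers counting error only. Rnf2 made up 99.8% of the summed TPM of the pair in either class. The longest identical run between Rnf2 and Ring1 transcripts is 14 bases, and Ring1 shares no stretch of 50 bases with the annotated transcripts of another gene.

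Among the 3 PCGF genes of the set the order was Pcgf1, Pcgf6, Bmi1 in all 4 libraries. Pcgf1 had 2566 and 2447 TPM in SN and 2619 and 2350 TPM in NSN, which put it at rank 51 of the 17945 genes by mean TPM. Pcgf6 had 185 and 212 TPM in SN and 211 and 239.9 TPM in NSN. Bmi1 had 97.1 and 129 TPM in SN and 116 and 153 TPM in NSN. Of the summed TPM of the 6 Pcgf genes, Pcgf1 made up 88.6% ± 1.68 in SN and 86.9% ± 2.34 in NSN, Pcgf6 7.01% ± 0.786 in SN and 7.92% ± 1.12 in NSN, and Bmi1 4.0% ± 0.852 in SN and 4.74% ± 1.14 in NSN (SD, n = 2 each). The paralogs outside the set were rarer. Pcgf3 had 9.01 to 10.1 TPM in SN and 8.28 to 10.3 in NSN, Pcgf5 2.15 to 2.55 TPM in SN and 2.40 to 2.53 in NSN, and Pcgf2, the closest relative of Bmi1, at most 0.05 TPM in SN and 0.08 in NSN.

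The level of Pcgf1 is uncertain because the mouse genome holds a near copy of its transcript. The pseudogene Gm8930 (chromosome 6, 22733733 to 22734500, GRCm38) matches 768 bases of the Pcgf1 transcript of 866 bases with 17 differences, an identity of 97.8%. Of the 817 overlapping 50-base stretches of the Pcgf1 transcript, 33.3% also occur in Gm8930, and a read lying wholly in them matches both genes. Gm8930 has no row among the values and is not analysed here. A stretch of 60 coding bases, picked because it has the most differences (5), shows how the copy can be told from the gene. Both sequences are on the plus strand of GRCm38 and come from the GENCODE M21 transcripts, and capitals mark the bases that differ. The Pcgf1 stretch spans an intron at chr6:83079931-83080088, and the copy runs without a break at chr6:22734258-22734317.
Pcgf1: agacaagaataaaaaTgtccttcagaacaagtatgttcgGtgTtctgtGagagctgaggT
Gm8930: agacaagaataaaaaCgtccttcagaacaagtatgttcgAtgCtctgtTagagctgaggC

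Bmi1 has a comparable copy in Gm5946 on chromosome X, with 97.4% identity over 2647 aligned bases. Of the 50-base stretches of the Bmi1 transcript, 18.5% occur in transcripts of another gene, Gm5946 or AC114652.1. The 8 other genes of the set share no such stretch with an annotated transcript of another gene.

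Bap1, whose enzyme removes ubiquitin from histone H2A within the PR-DUB complex, had 13.5 and 13.4 TPM in SN and 16.5 and 16.6 TPM in NSN. By mean TPM the order of the set was Pcgf1, Pcgf6, Ezh2, Bmi1, Eed, Rnf2, Suz12, Bap1, Ezh1 and Ring1. The ranges over all 4 libraries overlapped for Ezh2 and Bmi1, for Bmi1 and Eed, for Rnf2 and Suz12 and for Bap1 and Ezh1. Within single libraries, Ezh2 was above Bmi1, Rnf2 above Suz12 and Bap1 above Ezh1 in all 4, but Bmi1 was above Eed in 2. The ranges did not overlap for the other neighbours, where the steps were 11.8-fold between Pcgf1 and Pcgf6, 1.41-fold between Pcgf6 and Ezh2, 1.96-fold between Eed and Rnf2, 3.03-fold between Suz12 and Bap1 and 98.7-fold between Ezh1 and Ring1.

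**Figure D1:**
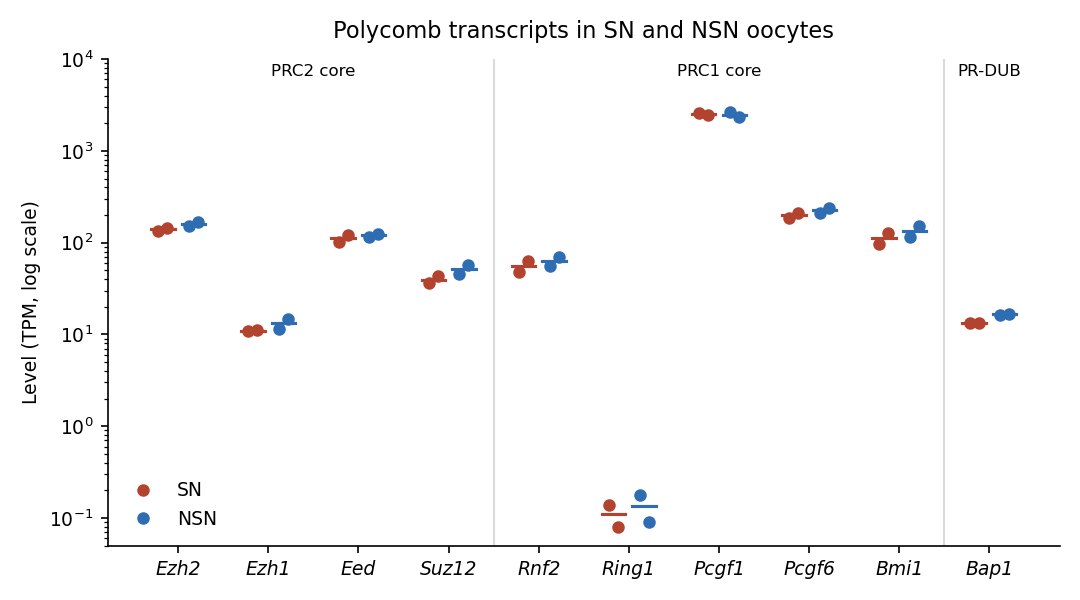
TPM on a log axis for the 10 genes, grouped by complex. Points are libraries (SN red, left; NSN blue, right) and bars are class means; Pcgf1 lies at 2350 TPM or more and Ring1 at 0.18 TPM or less in every library, and within each gene the classes lie close together.

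The comparison of the classes asks whether oocytes sorted by predicted chromatin class differ in these transcripts. Differences were tested on the counts and are given for the set as CPM scaled by TMM, a scale for comparing libraries but not genes. Of the 9 genes tested, 0 passed: edgeR's quasi-likelihood test gave Benjamini-Hochberg adjusted p from 0.707 to 0.989, 0 of the 9 had an unadjusted p under 0.05, and limma-voom also called 0. DESeq2 called 0 of the 4 for which it gave an adjusted p. Ring1 did not pass the filter on low counts. Over all 13426 genes tested, edgeR called 0 (0.0%), 1004 (7.48%) had an unadjusted p under 0.05, limma-voom called 0, and DESeq2 called 47 of the 672 to which it gave an adjusted p. The log2 fold change of SN over NSN was above 0 in 2 of the 9 and below 0 in 7, with a median of -0.03 against -0.01 over all genes tested.

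Suz12 had the smallest p of the set. It had 127 and 129.5 CPM in SN, against 135 and 157 CPM in NSN, so that both SN libraries lay below both NSN libraries. The log2 fold change was -0.19 (SE 0.10, edgeR unadjusted p = 0.0859, adjusted p = 0.707), a ratio of 0.878 with a 95% interval of 0.755 to 1.02. With 1 library left out the log2 fold change of Suz12 ran from -0.29 without NSN replicate 1 to -0.075 without NSN replicate 2. Eed was the other gene whose classes did not overlap in CPM, with 156.9 and 166 CPM in SN and 156.6 and 153 CPM in NSN (log2 0.06, SE 0.09). Non-overlap in CPM was thus seen in 2 of the 9 genes, while 39.0% of all tested genes showed it, 20.7% with SN lower, as in Suz12, and 18.3% with SN higher, as in Eed. On the TPM scale it was seen in 4 of the 9, against 41.9% of all tested genes. These were Ezh1, Ezh2, Suz12 and Bap1, each lower in both SN libraries. The 41.9% was not split by direction. On the TPM scale the median of all genes was itself below 0, at -0.15 on log2(TPM + 1).

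The direction of Eed depended on the scaling. With library size alone or on a TPM scale the median of all genes moved to between -0.18 and -0.13 on the log2 scale, and Eed to between -0.11 and -0.08. Eed was above the median of all genes in each of those settings.

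In both catalytic subunits the class means differed by less than the SN libraries differed from each other. Ezh2 had 274 and 253 CPM in SN and 269 and 265 CPM in NSN (log2 -0.02, SE 0.10). Ezh1 had 36.3 and 32.8 CPM in SN and 33.7 and 39.2 CPM in NSN (log2 -0.08, SE 0.12). In either gene the SN values overlapped the NSN values. The interval of the ratio ran from 0.848 to 1.15 for Ezh2 and from 0.790 to 1.14 for Ezh1.

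The PRC1 genes showed the same overlap of the classes. Pcgf6 had 304 and 303 CPM in SN and 299.6 and 311 CPM in NSN (log2 -0.01, SE 0.10, interval of the ratio 0.853 to 1.16). Rnf2 had 119.6 and 138 CPM in SN and 122 and 140.0 CPM in NSN (log2 -0.03, SE 0.11). In Rnf2 replicate 2 was the higher library in either class. Bmi1 had 261 and 300.9 CPM in SN and 269 and 322 CPM in NSN (log2 -0.07, SE 0.12). Counting only curated models turned its log2 fold change to 0.24; most of its count lies in a predicted model.

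Pcgf1 had the largest positive value of the set and the widest interval. It had 1443 and 1193 CPM in SN and 1283 and 1048 CPM in NSN, so SN replicate 2 lay below NSN replicate 1. The log2 fold change was 0.18 (SE 0.16, edgeR adjusted p = 0.801) and the interval of the ratio 0.894 to 1.43. Abundant genes in general were higher in SN: among genes with a log2 CPM above 10, where Pcgf1 lies, the median log2 fold change was 0.26 and 98.4% were above 0. Under cyclic loess scaling, which removes such a trend, the value of Pcgf1 was -0.02. Ezh2, Bmi1 and Pcgf6 lie in the next range, log2 CPM from 8 to 10, where the median was 0.13 and 84.3% were above 0, and all 3 had values below 0.

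Bap1 had 36.3 and 31.5 CPM in SN and 38.2 and 35.2 CPM in NSN. The classes overlapped, with a log2 fold change of -0.12 (SE 0.12) and an interval of the ratio of 0.771 to 1.10.

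**Figure D2:**
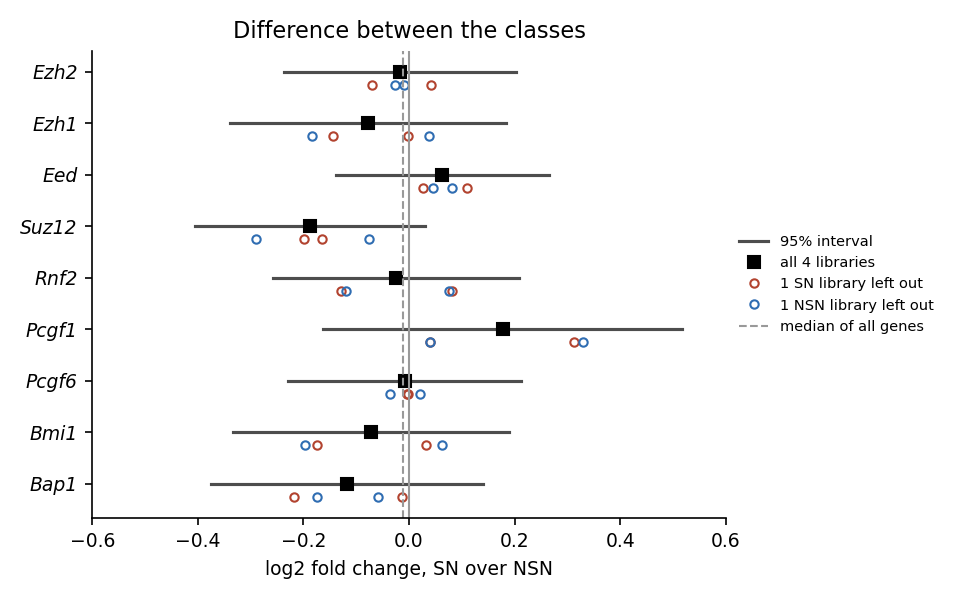
Log2 fold change of SN over NSN for the 9 genes tested (black squares, edgeR, all 4 libraries) with 95% intervals as bars; open circles leave out 1 SN library (red) or 1 NSN library (blue), and the dashed line is the median of all genes. Every interval includes 0, and the circles lie on both sides of 0 for Ezh1, Ezh2, Rnf2, Bmi1 and Pcgf6.

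The balance between paralogs was compared within each library, per length. Besides the ratio of Eed to Suz12, 4 ratios of TPM were compared. The log2 difference of SN minus NSN was 0.06 for Ezh2 over Ezh1 (exact permutation p = 1.0), 0.06 for Rnf2 over Ring1, 0.07 for Pcgf6 over Bmi1 and 0.27 for Pcgf1 over Bmi1 (exact permutation p = 0.667 for each of these 3). The ratio of Pcgf1 to Bmi1 was 26.4 and 18.99 in SN and 22.5 and 15.4 in NSN, and that of Pcgf6 to Bmi1 was 1.90 and 1.65 in SN and 1.81 and 1.57 in NSN. In both, replicate 1 gave the higher ratio in either class. The ratio of Rnf2 to Ring1, 338 and 788 in SN and 312 and 782 in NSN, rests on the 4 to 8 counts of Ring1.

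Values of single transcript models carry more error than gene totals, since RSEM divides reads between models by likelihood. Of the 29 models, 25 were tested, and edgeR called 0 after adjustment over 29835 models (0.0% called; 2 of the 25 and 6.47% of all had an unadjusted p under 0.05). DESeq2 called 2 of them, a model of Suz12 and a model of Rnf2, and 4.93% of all models. By the authors' deposited table, 3 of the 29 had an unadjusted p under 0.05, against 8.36% of all models with a p: those 2 and a minor model of Ezh2.

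The models of Suz12 differ by an exon inside the coding sequence. Model NM_199196.2 includes exon 4 (chromosome 11, 79999057 to 79999125, GRCm38, plus strand) and NM_001163018.1 skips it. The exon has 69 coding bases, or 23 codons, so that the reading frame is kept. The 2 forms are shown with 30 bases on either side of the exon, from the GENCODE M21 transcripts. Capitals mark the exon in the first and, in the second, 6 bases on either side of the junction that skipping makes.
Suz12 with exon 4: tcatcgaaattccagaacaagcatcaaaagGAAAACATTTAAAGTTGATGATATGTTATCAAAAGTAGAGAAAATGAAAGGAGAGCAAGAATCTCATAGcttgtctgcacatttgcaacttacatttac
Suz12 without exon 4: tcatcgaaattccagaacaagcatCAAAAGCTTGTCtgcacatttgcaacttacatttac

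Both forms were abundant in the oocyte. The skipping model NM_001163018.1 had 64.7 and 76.6 CPM in SN, against 98.8 and 94.0 CPM in NSN, with both SN libraries below both NSN libraries. Its log2 fold change was -0.46 (SE 0.12), and the tools disagreed on it. The adjusted p was 0.696 by edgeR and 0.00528 by DESeq2, and the authors' deposited table gives a log2 ratio of -0.46 with an unadjusted p of 0.000152. The including model NM_199196.2 had 62.0 and 52.9 CPM in SN and 36.2 and 62.7 CPM in NSN (log2 0.20, SE 0.31), so that the classes overlapped and NSN replicate 1 was the low library. Non-overlap in CPM, as in the skipping model, was also seen in other models of the set, among them both models of Ezh1. The share of all tested models that showed it was not worked out.

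As a share of the TPM of Suz12, the skipping model NM_001163018.1 took 51.5% and 59.6% in SN and 73.5% and 60.4% in NSN. SN replicate 2 and NSN replicate 2 were almost equal in this share. The test of shares, edgeR's diffSpliceDGE with a Simes p per gene, gave Suz12 an unadjusted value of 0.334. It called 0 of the 7 genes tested, against 27 of 7000 genes (0.386%). Without adjustment 1 of the 7, Rnf2, had a p under 0.05, against 6.33% of all genes.

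Rnf2 had a model listed at 0 in one class. Model NM_001360847.1 has an additional non-coding exon of 184 bases near the 5′ end (chromosome 1, 151487272 to 151487455), a first exon of 93 bases in place of 237, and the same 1008 coding bases as NM_011277.3. It had 0 and 0 estimated counts in SN and 55.3 and 73.2 in NSN, at least 22.0-fold lower in SN against a floor of 3 counts per library. The adjusted p for NM_001360847.1 was 0.696 by edgeR and 4.92e-05 by DESeq2, and the authors' deposited table gives an unadjusted p of 1.70e-06. The Simes p of Rnf2 was 0.00205 (adjusted p = 0.186). This model made up 1.34% ± 0.0891 of the TPM of Rnf2 in NSN (SD, n = 2), and NM_011277.3 carried 98.3% ± 0.704 in SN and 97.6% ± 0.530 in NSN.

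Most of Bmi1 was assigned to a predicted model with other ends. XM_006497311.3 begins with a non-coding exon at chromosome 2, 18680372 to 18680475, where NM_007552.4 begins at 18677018, and its last exon ends at 18686130 in place of 18686629. Both encode the same 972 coding bases. XM_006497311.3 took 85.5% and 87.6% of the TPM of Bmi1 in SN and 87.0% and 91.2% in NSN. NM_007552.4 had 39.7 and 39.2 CPM in SN and 36.8 and 29.8 CPM in NSN (log2 0.23, SE 0.13), without overlap. The classes overlapped for the gene total, whose log2 fold change was of the other sign, at -0.07.

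In Ezh2, NM_007971.2 carried 57.4% and 56.0% of the TPM in SN and 55.1% and 57.1% in NSN, and XM_006505525.2 carried 28.2% and 29.8% in SN and 28.6% and 30.1% in NSN. The shares of both were steady across the 4 libraries. The minor Ezh2 model named above, XM_030255154.1, had 0.564 and 2.55 CPM in SN and 6.77 and 4.13 CPM in NSN, and the authors' deposited table gives it an unadjusted p of 0.0274. In Ezh1, NM_007970.3 carried 87.4% and 83.1% in SN and 98.0% and 90.2% in NSN. It had 31.7 and 27.3 CPM in SN and 33.0 and 35.3 CPM in NSN (log2 -0.23, SE 0.12, edgeR adjusted p = 0.972). The predicted Ezh1 model XM_006532178.4 took 12.6% and 16.9% in SN and 1.98% and 9.81% in NSN (log2 1.14, SE 0.93), with NSN replicate 1 far below the other libraries. NM_027654.3 carried 87.4% ± 0.706 of the TPM of Pcgf6 in SN and 86.8% ± 2.64 in NSN, and NM_197992.1 carried 99.4% ± 0.0689 of that of Pcgf1 in SN and 99.3% ± 0.0774 in NSN (SD, n = 2 each). Eed, Ring1 and Bap1 have 1 model each.

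**Figure D3:**
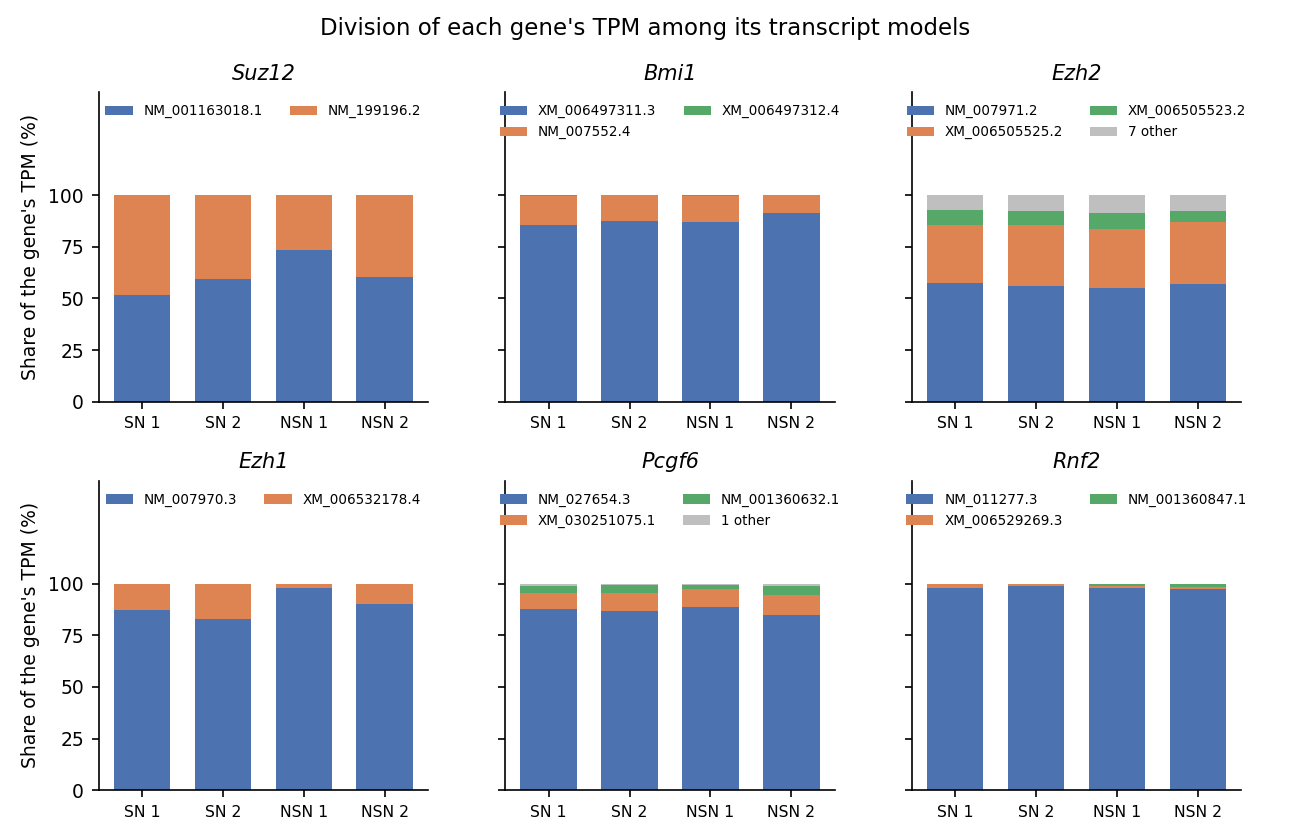
Share of each gene's TPM (percent, stacked to 100) assigned to its transcript models in the 4 libraries, SN on the left of each panel, for 6 genes with several models; models beyond the 3 largest are pooled in grey. The Suz12 panel shows the skipping model NM_001163018.1 (blue) at 51.5% and 59.6% in SN and 73.5% and 60.4% in NSN, while in the Ezh2 panel NM_007971.2 stays between 55.1% and 57.4%.

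The partners of these proteins were read from 7 lists of the pathway, of which 60 genes were tested. The edgeR test called 0 of the 60, limma-voom 0, and DESeq2 0 of the 3 to which it gave an adjusted p. An unadjusted p under 0.05 by edgeR was found for 7 of the 60, against 7.48% of all genes tested. Of the 60, 27 were above 0 and 33 below with a median log2 fold change of -0.04, and of all genes 6450 were above 0 and 6976 below with a median of -0.01. The lists were chosen with earlier results of these libraries known. Levels of the list genes are given in TPM, while their log2 fold changes come from the counts scaled by TMM. The TPM values can therefore differ from the tested difference in direction or overlap.

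Among the accessory subunits of PRC2, 10 of 11 genes were tested, 0 passed, 6 were above 0 and 4 below, and the median was 0.07. With library size alone 2 were above 0 and 8 below, but 4 were below the median of all genes, which that scaling moves down. The most abundant were Rbbp7, a histone-binding subunit that is often counted in the PRC2 core, and Ezhip, an inhibitor of PRC2. Rbbp7 had 1462 and 1492 TPM in SN and 1280.0 and 1522 TPM in NSN (log2 of the counts 0.28, SE 0.15). Ezhip had 578 and 665 TPM in SN and 549.7 and 601 TPM in NSN (log2 of the counts 0.28, SE 0.12, edgeR adjusted p = 0.662), above the levels of Ezh1, Ezh2, Eed and Suz12 in each library. Abundant genes in general were higher in SN. The median was 0.26 at log2 CPM above 10, where Rbbp7 lies, and 0.13 from 8 to 10, where Ezhip lies. Under cyclic loess scaling Rbbp7 was 0.043 and Ezhip 0.11. Jarid2, which helps to bring PRC2 to chromatin, had 13.1 and 16.2 TPM in SN and 19.4 and 19.9 TPM in NSN (log2 of the counts -0.24, SE 0.10, edgeR adjusted p = 0.662). Epop did not pass the filter on low counts.

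Of the other core and canonical PRC1 subunits, 13 of 14 genes had rows and 10 were tested, 0 passed, 8 were below 0 and 2 above, and the median was -0.20. DESeq2, limma-voom, cyclic loess, the fit without a filter and the replicate block also put 8 of the 10 below 0, and without NSN replicate 2 it was 7. On log2(TPM + 1) 9 were below 0 but 7 below the median of all genes, and with library size alone 10 and 8, since both scalings move the median of all genes down. Cbx2, a reader of the PRC2 mark, had 22.7 and 24.3 TPM in SN and 27.5 and 34.3 TPM in NSN (log2 of the counts -0.21, SE 0.10). Phc2, a subunit through which PRC1 complexes cluster, made up 70.2% ± 0.894 of the TPM of the Phc genes in SN and 72.2% ± 0.0124 in NSN (SD, n = 2 each). Phc2 had 30.5 and 30.8 TPM in SN and 41.0 and 43.1 TPM in NSN (log2 of the counts -0.28, SE 0.10, edgeR unadjusted p = 0.0201, adjusted p = 0.662).

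The partners of variant PRC1 were all tested, 19 of 19, and 0 passed, with 9 above 0, 10 below and a median of -0.02. On log2(TPM + 1) 1 was above 0 and 17 below, but 11 were below the median of all genes, which that scale moves down. Csnk2b, the regulatory subunit of a casein kinase found with some PCGF proteins, had 384 and 356 TPM in SN and 329 and 304 TPM in NSN (log2 of the counts 0.40, SE 0.12, edgeR adjusted p = 0.662), so the classes did not overlap. Csnk2b was called without SN replicate 2 (log2 0.55), where SN is 1 library assumed to vary like NSN. It was not called at 0.24 without SN replicate 1, 0.53 without NSN replicate 1 or 0.28 without NSN replicate 2. L3mbtl2, a partner of PCGF6, had 9.31 and 11.4 TPM in SN and 13.1 and 15.2 TPM in NSN (log2 of the counts -0.28, SE 0.12). Kdm2b, which brings PCGF1 to unmethylated CpG islands, had 32.3 and 41.3 TPM in SN and 43.1 and 52.9 TPM in NSN, while its partner Bcor did not exceed 0.46 TPM in any library. Both were picked after their values were seen. Skp1, an adaptor that PCGF1 complexes share with other ubiquitin ligases, was the most abundant of the list at 7221 and 7362 TPM in SN and 8034 and 8677 TPM in NSN (log2 of the counts -0.02, SE 0.19).

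For the PR-DUB partners, 10 of 10 genes were tested and 0 passed, with 4 above 0, 6 below and a median of -0.07. On log2(TPM + 1) 0 were above 0, but 5 of the 10 were below the median of all genes, which that scale moves down. Kdm1b, a demethylase of histone H3 needed for maternal imprints in mouse oocytes, had 50.9 and 65.9 TPM in SN and 79.6 and 77.9 TPM in NSN (log2 of the counts -0.22, SE 0.10, edgeR adjusted p = 0.662). With curated models only its log2 fold change was 0.14. Foxk1, a transcription factor that binds BAP1, had 0.98 and 1.30 TPM in SN and 1.36 and 1.94 TPM in NSN (log2 of the counts -0.33, SE 0.20).

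Of the demethylases of H3 lysine 27 and other H2A deubiquitinases, 6 of 6 were tested and 0 passed, with 3 above 0, 3 below and a median of 0.00. With library size alone 1 was above 0 and 5 below, but 2 were below the median of all genes, which that scaling moves down. Kdm6b, which removes the PRC2 mark, had 18.4 and 20.0 TPM in SN and 16.4 and 19.8 TPM in NSN (log2 of the counts 0.27, SE 0.10, edgeR unadjusted p = 0.0160, adjusted p = 0.662), and with curated models only its value was -0.13. Usp21 had 7.70 and 8.84 TPM in SN and 10.8 and 10.8 TPM in NSN (log2 of the counts -0.21, SE 0.14). Usp3 was the most abundant at 109 and 116 TPM in SN and 116 and 145.4 TPM in NSN (log2 of the counts 0.00, SE 0.10).

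Known targets of Polycomb in the germ line were mostly near 0. Of 6 genes imprinted in the mouse embryo through maternal methylation of H3 lysine 27, 5 had rows and 2 were tested, with 0 called. Gab1, a signalling adaptor, had 7.61 and 5.68 TPM in SN and 6.77 and 3.72 TPM in NSN (log2 of the counts 0.52, SE 0.51), and edgeR called it without SN replicate 2 (log2 0.80), where the SN class is 1 library assumed to vary like NSN and 289 genes are called. Gab1 was not called at 0.18 without SN replicate 1, 1.10 without NSN replicate 1 or 0.11 without NSN replicate 2. Smoc1 had 0.21 and 0.74 TPM in SN and 0.14 and 0.76 TPM in NSN. Sfmbt2, Slc38a4 and Jade1 did not exceed 0.15 TPM in any library.

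Of 39 Hox genes, the classical Polycomb targets, 23 had rows and 3 were tested, with 0 called and 9 under 3 counts in every library. Hoxa7 was the exception in level, with 8.23 and 9.46 TPM in SN and 10.9 and 12.8 TPM in NSN (log2 of the counts -0.25, SE 0.14, edgeR adjusted p = 0.714), and its classes did not overlap. Hoxd9 had 0.61 and 0.58 TPM in SN and 1.01 and 0.48 TPM in NSN. No other Hox gene exceeded 0.27 TPM in any library.

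**Figure D4:**
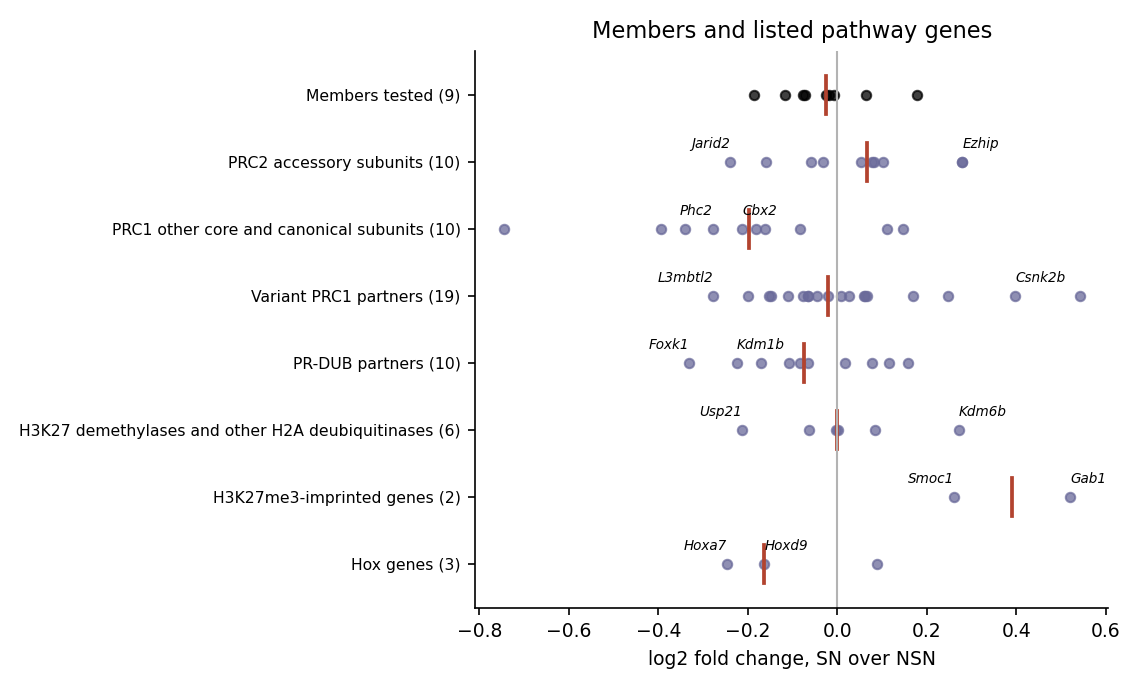
Log2 fold change of SN over NSN for the 9 genes of the set that were tested and for the 60 tested genes of 7 pathway lists, 1 point a gene, with the number tested in brackets and the median as a red line; the 2 genes with the smallest unadjusted p of each list are named. None of the points passed the edgeR test, and the points of the set, from -0.19 to 0.18, lie within the range of the lists.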

How the data were processed

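Values come from 1 deposited table of 48574 RefSeq mRNA models for 2 SN and 2 NSN libraries. The submitters' processing notes list HISAT2, Bowtie2 and RSEM with no version, and the mm10 build (GRCm38). The authors deposited estimated counts per model (59.8% not whole) and TPM, which were used, and FPKM, a normalized signal per the file headers and class averages, which were not. The authors' log2 ratio and unadjusted p-value per model, from a tool not given in the sources used here, are credited where printed. RSEM divides reads shared by models or near copies by likelihood, and that error is in none of the tests.

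For each gene ID the counts of all models were added up and rounded. Genes passing filterByExpr (13426) were scaled by TMM (factors 0.896 to 1.08) and compared with edgeR 4.0.16's robust quasi-likelihood test in R 4.3.3, without covariates, over the whole table, with calls at a Benjamini-Hochberg adjusted p of 0.05. SE denotes the standard error of a log2 fold change, SN over NSN. The same test was run on 29835 models, and diffSpliceDGE on 7000 genes. The floor is 3 counts per library. Intervals for Ring1 cover counting error only, since PCR reads are not independent molecules. Alternatives were DESeq2 1.42.0, limma-voom and limma-trend (limma 3.58.1), other scaling, no filter, curated models, TPM in place of counts, a replicate block and each library left out.

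Tests were run on simulated data. Counts were drawn with dispersions estimated from these libraries. Changes were put only into genes and models above a minimum mean CPM, so recovery at lower levels was not measured. In either simulation 67 were changed 1.5-fold, 67 changed 2-fold and 66 changed 4-fold. Adjusted p-values depend on how many genes change, so recovery need not be the same in the data themselves, where edgeR called 0. For genes (13215 simulated), the test recovered 38.8% of genes changed 1.5-fold, 94.0% of those changed 2-fold and 98.5% of those changed 4-fold, with 14 false calls. For models (26567), it recovered 0.0% of those changed 1.5-fold, 13.4% at 2-fold and 56.1% at 4-fold, with 7 false calls. For shares (6330 genes), 2 models in each of 60 genes were moved 4-fold in opposite directions, a larger change in their ratio. Of these 60 genes 45.0% were recovered, with 19 false calls.

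Named were all 10 genes, their models with at least 10% of the gene's TPM, and in each of 7 pathway lists the 2 tested genes with the smallest unadjusted p and the most abundant. Other models and genes were named after their values were seen: the models called by DESeq2 or with a low p in the authors' deposited table, and the Pcgf relatives, Kdm2b, Bcor, Epop and the genes near 0. Genes and lists were chosen with earlier results of these data known. Locations are from RefSeq for GRCm38 and sequences from GENCODE M21 transcripts. Genes of the lists with no row in the table are not analysed here.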

Additional observations from a re-analysis of the deposited data

How the results depend on the processing

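No gene of the set was called in any of the 14 alternative settings (DESeq2 gave no adjusted p for 5 of the 9). The count over all genes was 47 with DESeq2, 15 with library size alone, 15 without a low-count filter, 38 on log2(TPM + 1), 42 on log2(TPM + 0.1), 1 with curated models, 0 with limma-voom, cyclic loess and unfiltered TPM, and 2 to 289 with 1 library left out (289 without SN replicate 2, 27 without SN replicate 1). DESeq2 called 1471 models over all genes, 2 of them of the set. Shares per model were called in 0 to 13 genes with 1 library left out, against 27. A fit with the replicate number as a block called 44 genes, 0 models and 2 genes for shares, and no gene or model of the set. Deviations of same-numbered libraries correlated at 0.029 over all tested genes. With 2 libraries per class this is a single value and cannot exclude a pairing. The numbers were not taken as a pairing outside that fit. Signs turned as follows, and the cause was not tested beyond the scaling shift given for Eed. Eed was -0.077 with library size alone and -0.11 on log2(TPM + 1), on log2(TPM + 0.1) and on unfiltered TPM. With curated models Bmi1 was 0.24, Pcgf6 0.0034, Kdm1b 0.14, Kdm6b -0.13, Usp3 0.070, Smoc1 -0.058, the ratio of Pcgf6 to Bmi1 -0.24 and that of Pcgf1 to Bmi1 -0.058. With cyclic loess Pcgf1 was -0.020 and Hoxd9 0.034, and with DESeq2 Pcgf6 was 0.0054 and Usp3 0.012. With 1 library left out the values ran from -0.18 to 0.037 for Ezh1, -0.070 to 0.042 for Ezh2, -0.13 to 0.082 for Rnf2, -0.20 to 0.063 for Bmi1, -0.037 to 0.021 for Pcgf6, -0.10 to 0.070 for Skp1, -0.071 to 0.071 for Usp3, -0.77 to 1.82 for Smoc1 and -0.65 to 0.56 for Hoxd9. They ran from -0.30 to 0.050 for Bmi1 model XM_006497311.3, -0.084 to 0.053 for Ezh2 model NM_007971.2, -0.15 to 0.091 for Rnf2 model NM_011277.3 and -0.15 to 0.66 for Suz12 model NM_199196.2, and stayed below 0 for Suz12 model NM_001163018.1 (-0.59 to -0.33). The ratios ran from -0.062 to 0.17 for Ezh2 to Ezh1, -0.60 to 0.73 for Rnf2 to Ring1, -0.037 to 0.17 for Pcgf6 to Bmi1 and -0.0092 to 0.54 for Pcgf1 to Bmi1. Of 37 named log2 fold changes, 20 kept their sign in every setting. Depth limits Ring1, at 4 to 8 counts a library.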
